A study of Mus musculus with 12 samples.

Results

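The histone genes of the mouse were followed in RNA-seq data of totipotent potential stem cells (TPS cells) and extended pluripotent stem cells (EPS cells). The members were taken by name and annotation: a gene of GENCODE M21 that codes for protein and whose symbol starts with Hist1h to Hist4h, H1f, H2af or H3f3. This gave 82 genes of the 55401 in the count files. Of these, 67 lie in the Hist1 to Hist4 clusters and are called replication-dependent genes here, and 15 are histone variant genes. The 12 libraries came from 3 TPS and 3 EPS lines, with 2 technical replicates of each line. TPS cells were grown in the CPEC condition (VCED medium in the labels), a mix of CD1530 (an agonist of RARγ), VPA (which inhibits histone deacetylases), EPZ004777 (which inhibits DOT1L) and CHIR (which inhibits GSK3). EPS cells were grown in LCDM medium, and both kinds of cell were kept on fibroblast feeder cells. No genetic change, strain or passage number is labelled for the lines, and the text of the study does not say from which cells the sequenced TPS lines came. Cell type and medium therefore cannot be told apart, and neither can fewer cells of a type and less RNA per cell.

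Histones package DNA into nucleosomes, each made of H2A, H2B, H3 and H4, and linker histone H1 binds the DNA between them. Replication-dependent genes lie in clusters, have many near-identical copies and are made in S phase, when new DNA must be packaged. Most of their mRNAs end in a short stem-loop and not in a poly(A) tail. Variant genes such as H2afz and H3f3b mostly lie alone, have introns in many cases, are made throughout the cell cycle and give polyadenylated mRNAs. Libraries were made with oligo(dT) beads, so that mRNAs ending in the stem-loop are captured poorly and the level of a replication-dependent gene here is not its full level.

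The stem-loop is shown because it sets the clusters apart and because it bears on what oligo(dT) libraries can count. Its consensus, of 16 bases with 6 base pairs and a loop of 4 bases, was found in an annotated transcript of 46 of 67 replication-dependent genes, of 1 of 15 variant genes and of 0.292% of 21901 protein-coding genes. Among the 46, 26 had the form of Hist1h1c, 7 had the form of Hist1h4h and 2 had the form of Hist1h4i. The variant gene with the consensus was H2afx, whose mRNA is known in both a stem-loop and a polyadenylated form. Stems are in capitals and the loop is in lower case, in the DNA letters of the GENCODE M21 transcripts of GRCm38.
Hist1h1c, chr13:23739512-23739527, plus strand: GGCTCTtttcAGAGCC
Hist1h4h, chr13:23531458-23531473, plus strand: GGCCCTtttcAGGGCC
Hist1h4i, chr13:22040966-22040981, minus strand: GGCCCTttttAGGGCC
Hist3h2a, chr11:58955172-58955187, plus strand: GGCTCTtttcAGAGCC
H2afx, chr9:44335240-44335255, plus strand: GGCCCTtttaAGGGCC
The stems of the H4 genes and of H2afx differ from those of Hist1h1c and Hist3h2a in letters that change in both arms, and the pairing is kept. The poly(A) signal AATAAA stood within the last 50 bases of an annotated transcript of 14 of 67 replication-dependent genes, 9 of 15 variant genes and 65.7% of all protein-coding genes. Annotated transcripts that run past the stem-loop were common. The longest such stretch was 840 bases in Hist1h1c, 1643 in Hist3h2a, 330 in Hist1h4i and 822 in H2afx.

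The libraries held 13676051 to 21821707 counts, and 17468 genes passed the low-count filter of edgeR, once the technical replicates of each line had been summed. The 6 TPS marker genes (Zscan4c, Zscan4d, Zfp352, Tcstv1, Tcstv3 and Gm8300) were all called higher in TPS lines, and 4 of 6 pluripotency genes were called lower. Over all genes tested, the shares called higher and lower were 14.4% and 7.34%. Each TPS marker was at 0.0853 CPM or less in every EPS line and passed the filter through the TPS lines alone. Their calls are therefore a description and give no support for a difference. The 16 fibroblast genes summed to 3860 to 7300 CPM in TPS lines and 379 to 1590 CPM in EPS lines, and 10 of them were called higher in TPS lines. CPM are read counts scaled to the total of the line with edgeR's TMM factors. None of the defining fibroblast genes was at 0 in any line. EPS line 1 had the lowest fibroblast sum. Between the technical replicates of a line the chi-square was 2.58 to 22.3 times its degrees of freedom. It was highest in EPS line 3 and then, at 9.61, in EPS line 1, so no pair was the same set of counts deposited again. Whether a pair was made as separate libraries or as a single library sequenced again cannot be told from this value.

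Of the 82 members, 9 had no count in any library, 61 passed the filter and 5 were called at an adjusted p under 0.05 by edgeR's quasi-likelihood test with Benjamini-Hochberg adjustment. The replication-dependent genes called higher in TPS lines were Hist1h1c (H1), Hist3h2a (H2A), Hist1h2bc (H2B) and Hist1h4i (H4). Hist3h2a, at few counts, passed the filter through the TPS lines alone, so its call gives no support for a difference. The single gene that was lower in TPS lines was the variant H2afz. Of all genes tested, 14.4% were called higher and 7.34% lower in TPS lines, against 4 of 51 and 0 of 51 replication-dependent genes and 0 of 10 and 1 of 10 variant genes tested. These numbers of calls lay below or near the background and are no result about histone genes. Fold changes were positive in 44 and negative in 7 of the 51 tested replication-dependent genes, with a median log2 fold change of 0.61, against a median of -0.00376 over all genes tested. Among the 10 variants 4 were positive and 6 negative, with a median of -0.22. The median of the replication-dependent genes was 0.37 without TPS line 2, 0.31 without EPS line 2, 0.40 without EPS line 3 and 1.04 without EPS line 1, and 0.55 and 0.57 without TPS lines 1 and 3. Without each of TPS lines 1, 2 and 3 and EPS lines 1, 2 and 3 in turn, edgeR called 2, 6, 1, 3, 1 and 2 of them. The median of the variants was -0.14 without TPS line 1, -0.33 without TPS line 3 and 0.01 with DESeq2, which took in 13 variants. Because a member that is high in a single group can pass the filter through it, these counts describe the genes that passed and not all members.

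**Figure D1:**
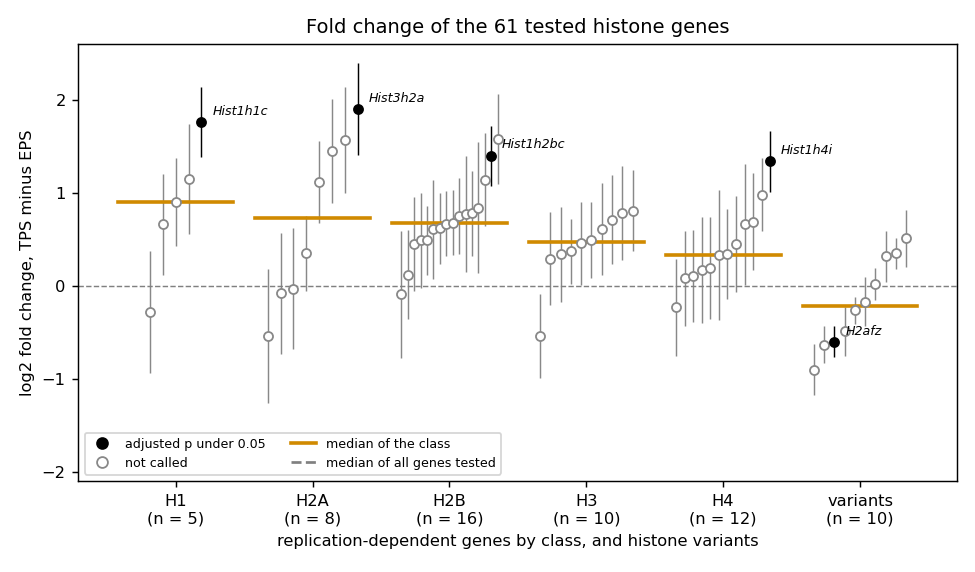
Log2 fold change (TPS minus EPS) of each of the 61 tested histone genes with its standard error, by histone class for the replication-dependent genes and together for the variants. Filled points were called at an adjusted p under 0.05. The class medians of the clustered genes lie between 0.34 (H4) and 0.90 (H1), and the median of the variants is -0.22.

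By class, the median log2 fold change was 0.90 over the 5 tested H1 genes, 0.74 over 8 H2A genes, 0.67 over 16 H2B genes, 0.47 over 10 H3 genes and 0.34 over 12 H4 genes. No H3 gene was called, and its values reached from -0.54 (Hist1h3e) to 0.81 (Hist1h3g). The TPS lines were all above the EPS lines in 10 of the 51 genes and all below them in 0. Over all genes tested these shares were 23.5% and 19.1%. Among the genes with the stem-loop in an annotated transcript 3 of 39 tested genes were called, with a median of 0.62, and among those without it 1 of 12, with a median of 0.47. Genes with a terminal AATAAA had a median of 0.66 (12 tested, 2 called) and the others 0.49 (39 tested, 2 called). Since 14.4% of all genes tested were called higher and 7.34% lower, these counts of calls are no result about the stem-loop or the AATAAA.

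Hist1h1c, which codes for linker histone H1.2, lies at chr13:23738808-23740367 on the plus strand as a single exon. It was at 59.8, 21.1 and 31.6 CPM in TPS lines 1, 2 and 3 and at 13.3, 10.1 and 9.76 CPM in EPS lines 1, 2 and 3. All TPS lines lay above all EPS lines, and TPS line 1 stood highest. The log2 fold change was 1.76 (SE 0.374, edgeR adjusted p = 0.0165), a 3.39-fold higher level in TPS lines. The call was lost without EPS line 2 (log2 fold change 1.68, adjusted p = 0.059) and kept in 13 of 14 alternative fits. Per kilobase of exon, Hist1h1c made up 41.0%, 17.1% and 24.4% of the summed H1 level in TPS lines and 12.6%, 13.1% and 16.8% in EPS lines, where H1f0 and H1fx were counted with the clustered H1 genes.

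Hist1h2bc, an H2B gene with introns at chr13:23684199-23692908 on the plus strand, was the other highly counted gene of the clusters. It was at 51.1, 21.1 and 38.5 CPM in TPS lines and at 12.4, 12.5 and 17.0 CPM in EPS lines. The groups did not overlap, and TPS line 2 was the lowest of the TPS lines, as for Hist1h1c. The log2 fold change was 1.4 (SE 0.322, edgeR adjusted p = 0.0214), or 2.64-fold. Without TPS line 1 the edgeR adjusted p was 0.0585, without TPS line 3 it was 0.0617, without EPS line 1 it was 0.0712 and without EPS line 2 it was 0.0729, with log2 fold changes of 1.09 to 1.37. No stem-loop consensus was found in its annotated transcript. Its neighbour on the other strand, the H2A gene Hist1h2ac, did not pass the filter. It had 14, 18, 3, 5, 10 and 7 counts in the TPS libraries and 0, 1, 1, 4, 1 and 2 in the EPS libraries, and it is named after its values were seen. It was called higher with DESeq2 (2.52, adjusted p = 0.0457). In edgeR it was called without the low-count filter (2.45, adjusted p = 0.0394) and without TPS line 2 (2.85, adjusted p = 0.0317). Without EPS line 1 it was tested and not called (2.09). With so few EPS counts it passes a filter through the TPS lines alone.

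Hist1h4i, an H4 gene at chr13:22040636-22041362 on the minus strand, was at 9.08, 11.1 and 17.4 CPM in TPS lines and at 4.11, 6.35 and 4.32 CPM in EPS lines. Its groups did not overlap, and here TPS line 3 and not TPS line 1 was highest. The log2 fold change was 1.34 (SE 0.328, edgeR adjusted p = 0.026), or 2.54-fold. The call was lost without TPS line 3 (1.03, adjusted p = 0.0891), EPS line 1 (1.21, adjusted p = 0.0778) or EPS line 3 (1.25, adjusted p = 0.0733). Hist3h2a, an H2A gene at chr11:58954685-58956830 on the plus strand, was at 0.948, 0.44 and 0.794 CPM in TPS lines and at 0.261, 0.176 and 0.142 CPM in EPS lines. This is a low level, with 17, 21, 9, 8, 13 and 12 counts in the TPS libraries and 4, 4, 0, 6, 0 and 5 in the EPS libraries, and the gene passed the filter of 10 counts through the TPS lines alone. The log2 fold change was 1.90 (SE 0.494, edgeR adjusted p = 0.0322), or 3.74-fold, and the call held without TPS line 2 and was lost without any other line, with adjusted p between 0.0578 and 0.105. It was also lost without the low-count filter (1.87, adjusted p = 0.0504), and 4 of 11 alternative fits kept it. Because Hist3h2a entered the test through its level in TPS lines, its call and adjusted p give no support for a difference. Of the 100-base windows of its transcripts, 70.2% were found in no other gene, and Trim17, a gene that overlaps it, shared the most. The share was 94.9% for Hist1h1c, 84.9% for Hist1h4i and 74.6% for Hist1h2bc.

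**Figure D2:**
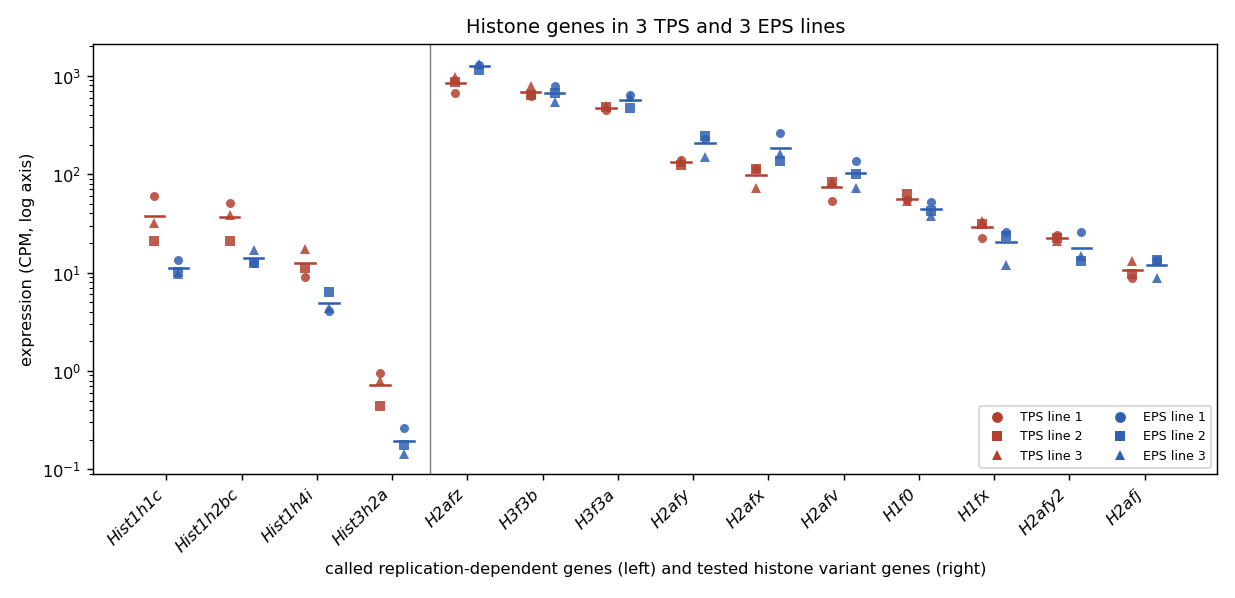
Expression (CPM, log axis) of the 4 called replication-dependent genes and the 10 tested variant genes in each line; bars are group means over 3 lines. The called cluster genes are separated between TPS and EPS lines, and H2afz, H2afy and H2afx lie lower in all 3 TPS lines.

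The promoters of 4 of the 5 called genes, Hist1h1c, Hist1h4i, Hist3h2a and H2afz, are shown because replication-dependent genes are known for shared promoter elements: a TATA box, CCAAT boxes and, in H2A and H2B genes, an octamer bound by POU factors. RefSeq windows of GRCm38.p6, from 250 bases before to 50 bases after each start, matched 76 of 82 members, 62 of them replication-dependent. On either strand, TATAAA was found in 35 of 62 replication-dependent genes, against 13.6% of all 32817 windows. CCAAT was found in 53 of 62, against 37.4%, in every H1, H2A, H2B and H3 window and in 3 of 12 H4 windows. The octamer ATTTGCAT was found in 14 of 62, against 1.74%, and these were 7 H2A and 7 H2B genes. None of the motifs contains another. The 250 bases before the start follow, 5′ to 3′ on the gene's strand, with matches in capitals (ATTGG and ATGCAAAT are matches on the other strand).
Hist1h1c, chr13:23738557-23738806, plus strand: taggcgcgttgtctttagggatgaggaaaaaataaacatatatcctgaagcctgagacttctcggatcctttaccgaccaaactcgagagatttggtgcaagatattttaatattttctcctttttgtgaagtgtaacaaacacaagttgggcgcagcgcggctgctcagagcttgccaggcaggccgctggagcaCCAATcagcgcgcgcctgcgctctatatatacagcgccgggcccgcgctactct
Hist1h4i, chr13:22041363-22041612, minus strand: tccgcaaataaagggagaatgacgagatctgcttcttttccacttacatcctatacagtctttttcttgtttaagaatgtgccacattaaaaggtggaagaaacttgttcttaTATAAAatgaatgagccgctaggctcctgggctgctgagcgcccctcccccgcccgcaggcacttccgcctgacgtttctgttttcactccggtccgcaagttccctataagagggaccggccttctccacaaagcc
Hist3h2a, chr11:58954435-58954684, plus strand: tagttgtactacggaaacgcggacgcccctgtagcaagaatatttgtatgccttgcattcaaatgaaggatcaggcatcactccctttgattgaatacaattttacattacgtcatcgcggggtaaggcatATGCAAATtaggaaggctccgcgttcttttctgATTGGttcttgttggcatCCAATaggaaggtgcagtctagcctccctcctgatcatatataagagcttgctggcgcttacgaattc
H2afz, chr3:137864237-137864486, plus strand: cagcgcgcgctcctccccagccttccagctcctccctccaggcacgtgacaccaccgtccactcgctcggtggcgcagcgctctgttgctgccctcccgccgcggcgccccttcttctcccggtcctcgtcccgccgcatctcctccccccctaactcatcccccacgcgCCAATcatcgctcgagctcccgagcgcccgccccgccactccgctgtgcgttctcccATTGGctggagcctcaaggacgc
Hist1h2bc was not analysed here for promoter matches. The other 4 called genes did not share a set of matches. Hist1h1c held CCAAT alone, Hist1h4i held TATAAA alone, Hist3h2a held CCAAT and the octamer, and H2afz held CCAAT alone. The 8 tested replication-dependent genes with the octamer had a median log2 fold change of 1.04, with 1 called, and the 38 without it a median of 0.61, with 2 called. Beside 14.4% called higher of all genes tested, these counts are no result about the octamer. Only 8 of the 14 octamer genes were tested, and the called gene, Hist3h2a, passed the filter through the TPS lines alone. Another, Hist1h2ab (1.57), was at 0.326, 0.147 and 0.0853 CPM in EPS lines. The difference between the medians was not tested. The matches are descriptions of letters in a window and not of bound sites.

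The fibroblast genes are given beside the called genes, since both were higher in TPS lines. Summed over the 4 called genes, the level was 121, 53.7 and 88.3 CPM in TPS lines and 30.1, 29.2 and 31.2 CPM in EPS lines, and the fibroblast genes summed to 7300, 3860 and 4320 CPM and to 379, 1520 and 1590 CPM in the same lines. TPS line 1 was highest and TPS line 2 lowest in both sums, and Hist1h1c and Hist1h2bc made up most of the first sum. Hist1h4i was lowest in TPS line 1, the line with the highest fibroblast sum. Among the EPS lines the fibroblast sum differed widely while the sum of the called genes did not. The called genes were picked by a test that favours little spread within a group. Their even level among EPS lines is therefore in part set by that choice, and no conclusion is drawn from it. All 16 fibroblast genes had a positive log2 fold change, with a median of 2.07. Their part in the difference was not tested.

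The 67 replication-dependent genes together summed to 243, 176 and 200 CPM in TPS lines and to 169, 86.8 and 87.1 CPM in EPS lines. All TPS lines lay above all EPS lines, and EPS line 1 was close to TPS line 2. Technical replicate 1 of EPS line 1, at 197 CPM, lay above both libraries of TPS line 2 (167 and 184 CPM), so the separation holds for summed lines only. Without the 4 called genes, a split that the difference between the groups itself made, the other 63 summed to 122, 122 and 111 CPM in TPS lines and to 139, 57.6 and 55.9 CPM in EPS lines. In that sum the place of EPS line 1 above the TPS lines rested on its technical replicate 1, at 166 CPM, since its technical replicate 2, at 120 CPM, lay below technical replicate 2 of TPS line 1 (126 CPM) and TPS line 2 (129 CPM). Over all 67 genes the means were 206 ± 33.9 CPM in TPS lines and 114 ± 47.1 CPM in EPS lines (SD, n = 3), and the EPS mean was 87.0 without EPS line 1. EPS line 1 was the highest EPS line in 46 of the 51 tested genes, against 37.0% of all genes tested. It lay above every TPS line in 19 of the 51, a share like the 37.4% of all genes tested. Left out after its level was seen, all TPS lines lay above EPS lines 2 and 3 in 43 of the 51 genes (27.7% of all genes tested) and below in 0 (23.8%). The median log2 fold change of the replication-dependent genes was then 1.04 over 52 genes. Of these, edgeR called 3 higher and 0 lower, against 9.47% and 4.46% of all genes tested in that fit, so that their number is no result about the cluster genes. The genes called were Hist1h1c (1.89, adjusted p = 0.0402), Hist1h1a (2.19, adjusted p = 0.0148) and Hist1h2bj (1.27, adjusted p = 0.0433). With all lines, Hist1h1a was at 1.15 (edgeR adjusted p = 0.201) and Hist1h2bj at 0.75 (adjusted p = 0.225), and neither was called. Hist1h1a codes for linker histone H1.1 and was at 4.94, 4.22 and 4.95 CPM in TPS lines and at 4.37, 0.971 and 1.05 CPM in EPS lines, so that EPS line 1 was at the level of the TPS lines.

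The summed level also differed between the technical replicates of the EPS lines. The ratio of replicate 1 to replicate 2 for the 67 genes was 1.32, 1.18 and 1.54 in EPS lines 1, 2 and 3 and 0.981, 0.908 and 1.02 in the TPS lines. For 7 RNAs without a poly(A) tail, of which Rn7sk gave nearly all counts, this ratio was 2.18, 1.63 and 2.98 in EPS lines and 0.585, 0.384 and 0.512 in TPS lines. Both sums were therefore higher in replicate 1 of every EPS line, and EPS line 1 had the highest level of the RNAs without a tail, at 20 CPM against 5.79 and 8.25 in the other EPS lines and 5.34 to 6.83 in TPS lines. For small nuclear and nucleolar RNAs the ratio was 0.958, 1.31 and 0.961 in EPS lines and 0.911, 0.99 and 0.83 in TPS lines, so that it was above 1 in EPS line 2 alone, where it exceeded that of the cluster genes. They summed to 38.2, 49.3 and 37.8 CPM in EPS lines and 42.4, 29.2 and 44.5 CPM in TPS lines. The 4 called genes summed to 31.1 and 29.4 CPM in technical replicates 1 and 2 of EPS line 1, 30.0 and 28.5 CPM in those of EPS line 2 and 32.5 and 30.2 CPM in those of EPS line 3. The test that picked them favours little spread within a group, so this evenness between EPS lines is in part set by the choice. In the 39 replication-dependent genes tested with either replicate, the median log2 fold change was 0.28 from technical replicate 1 alone and 0.96 from technical replicate 2 alone. How much of the difference between the groups comes from the capture of RNAs without a poly(A) tail was not tested.

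**Figure D3:**
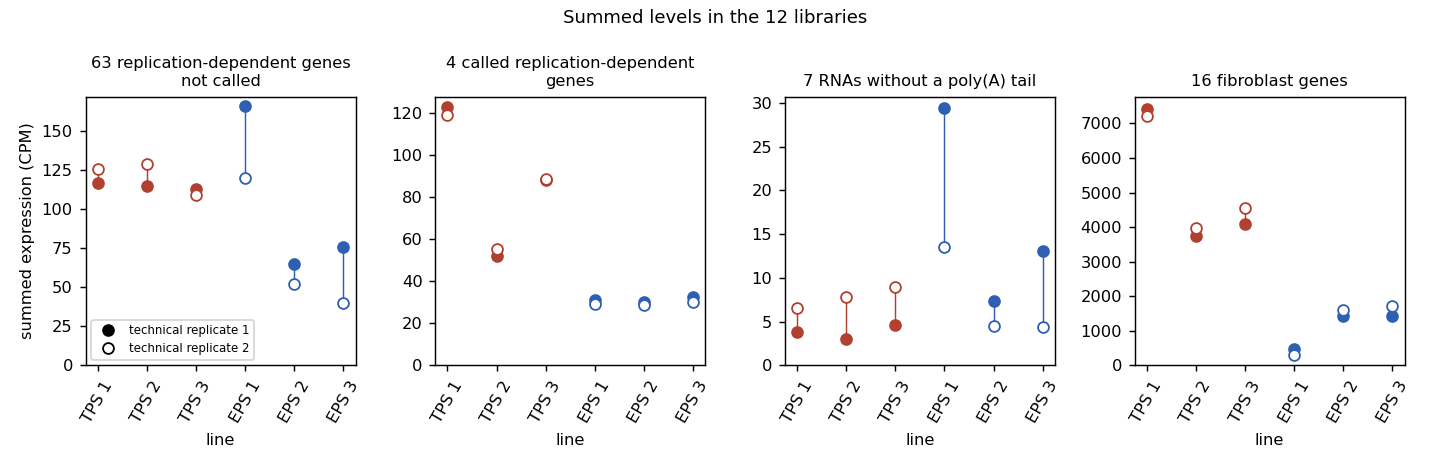
Summed expression (CPM) in each of the 12 libraries for 4 groups of genes, with technical replicates 1 and 2 of a line joined by a line. The 63 genes that were not called are highest in technical replicate 1 of EPS line 1 (166 CPM) but not in its replicate 2 (120 CPM), and the RNAs without a poly(A) tail are highest in both. The 4 called genes lie between 28.5 and 32.5 CPM in all EPS libraries, an evenness that is in part set by how they were picked.

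**Figure D4:**
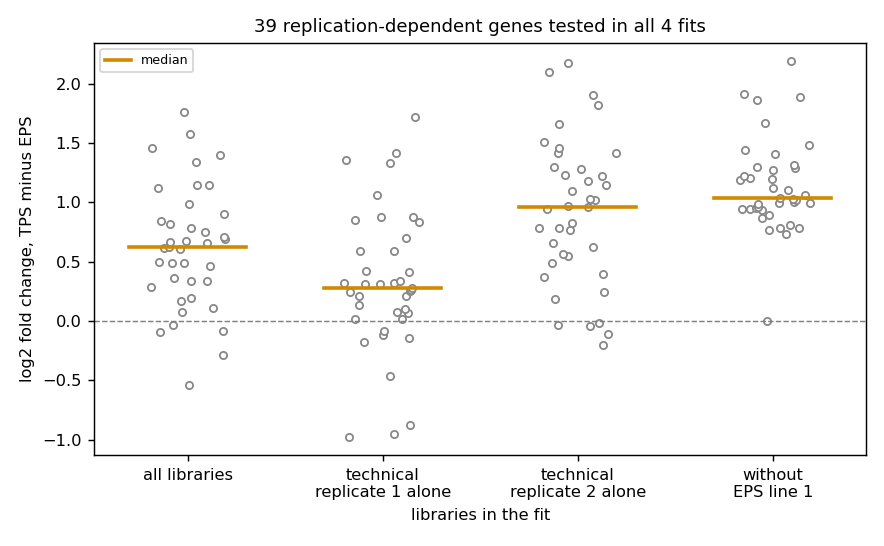
Log2 fold change (TPS minus EPS) of the 39 replication-dependent genes that were tested in all 4 fits. The median is 0.62 with all libraries, 0.28 and 0.96 with technical replicate 1 or 2 alone, and 1.03 without EPS line 1.

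Besides the called genes, the replication-dependent genes with the highest mean CPM were Hist1h3c, Hist1h2br, Hist1h2bq, Hist1h2bk, Hist1h3h, Hist1h3b and Hist1h4n. Hist1h3c, an H3 gene, was at 8.53, 9.09 and 7.75 CPM in TPS lines and 10, 5.27 and 4.38 CPM in EPS lines. Hist1h2bk, an H2B gene, was at 6.79, 6.91 and 5.78 CPM in TPS lines and 7.31, 3.27 and 3.36 CPM in EPS lines. In both genes EPS line 1 was the highest of all lines and the other EPS lines were the lowest. The log2 fold changes were 0.37 for Hist1h3c, 0.49 for Hist1h2bk and Hist1h3h, 0.61 for Hist1h3b and 0.17 for Hist1h4n, with edgeR adjusted p between 0.381 and 0.857. Hist1h2br and Hist1h2bq, with log2 fold changes of 0.68 and 0.67 (adjusted p = 0.2 and 0.201), are near-identical copies. Their counts were equal in 7 of 12 libraries and differed by at most 1, and those of Hist1h2ao and Hist1h2ap were equal in 10 of 12 and differed by at most 2. Such pairs do not count as separate evidence, but both genes of each pair are kept in the gene counts, medians and sums given here. Reads of copies could have been shared or split, since the handling of reads with several places is not given in the sources used here.

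Of 100-base windows in the transcripts, at least 50% belonged to a single gene in 39 replication-dependent genes. The 33 of these that were tested held all 4 calls and had a median log2 fold change of 0.66. The 18 tested genes with fewer such windows held 0 calls and had a median of 0.47. Beside 14.4% called higher and 7.34% called lower of all genes tested, these few calls are no result about either set. Next to the threshold lay Hist1h2be, an H2B gene at 3.67, 1.37 and 2.51 CPM in TPS lines and 1.17, 0.559 and 0.796 CPM in EPS lines. Its groups did not overlap, and its log2 fold change was 1.58 (SE 0.487, edgeR adjusted p = 0.0549). DESeq2 called it (1.57, adjusted p = 0.0119). So did edgeR with library totals, without the filter, with 1 CPM in 3 lines and without TPS line 2 (adjusted p 0.0377 to 0.0496). It was called in no other fit. It is named after its values were seen.

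Along chromosome 13 the 54 Hist1 genes form runs separated by gaps of over 100000 bases. The first run, chr13:21715763-21837530, had 16 tested genes with a median log2 fold change of 0.40 and 0 calls. The second, chr13:22035164-22043676, had 4 tested genes with a median of 0.94 and included Hist1h4i. The next run, chr13:23531050-23764406, had 25 tested genes with a median of 0.69 and included Hist1h1c and Hist1h2bc. The last run, with the testis genes Hist1h2ba and Hist1h2aa, had no tested gene. Positive values were found in every run with tested genes, in 13 of 16, 4 of 4 and 22 of 25 genes. Over all genes tested, 8694 were positive and 8774 negative. Beside 14.4% called higher and 7.34% called lower of all genes tested, the calls in the runs are no result about position. The 3 tested Hist2 genes on chromosome 3 had a median of 0.12, the 2 Hist3 genes on chromosome 11 were at 1.90 (Hist3h2a) and 0.84 (Hist3h2ba), and Hist4h4 on chromosome 6 was at 0.45. Among the 6 Hist2 genes with no count in any library, Hist2h2aa1, Hist2h2aa2, Hist2h3c1, Hist2h3b and Hist2h2bb had no 100-base window that belonged to a single gene. In Hist2h2ab, the remaining gene, 40.3% of the windows did. Since the handling of reads with several places is not given, a lack of counts in genes without such windows does not show absence of expression.

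**Figure D5:**
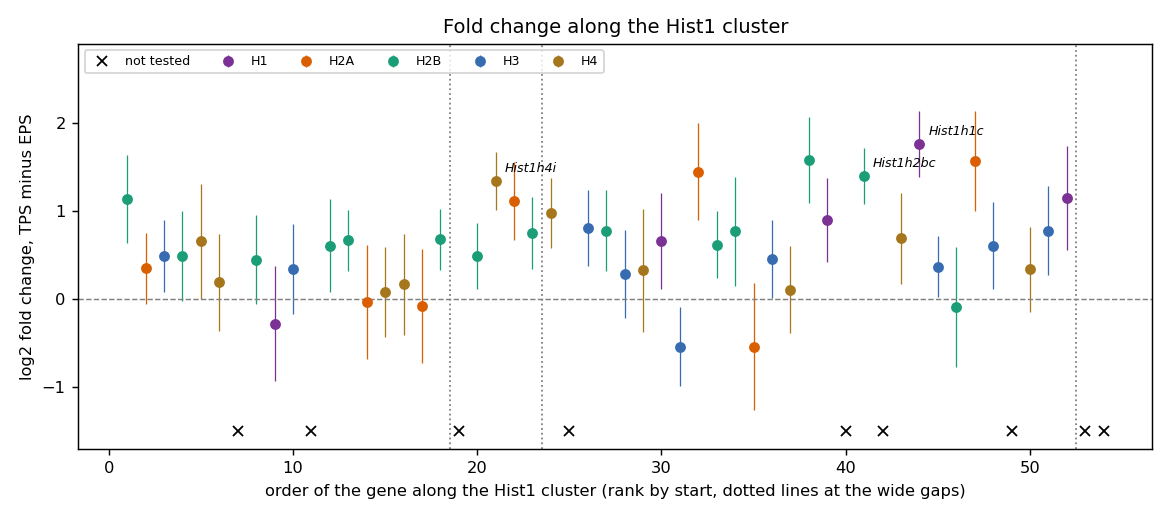
Log2 fold change (TPS minus EPS) with its standard error for the tested Hist1 genes in their order along chromosome 13, coloured by class; crosses mark genes that were not tested and dotted lines the wide gaps. The called genes Hist1h4i, Hist1h2bc and Hist1h1c lie in the middle runs, and so few calls are no result about position.

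Among the variants, H2afz was the most abundant histone gene per kilobase of exon, with 470 ± 84.9 RPKM in TPS lines and 711 ± 54.1 RPKM in EPS lines (SD, n = 3). It codes for H2A.Z, the variant at promoters and regulatory elements, and lies at chr3:137864487-137866922 on the plus strand. It was at 669, 872 and 964 CPM in TPS lines and at 1300, 1150 and 1330 CPM in EPS lines. All TPS lines lay below all EPS lines, and TPS line 1, which had the highest fibroblast sum, was the lowest. The log2 fold change was -0.60 (SE 0.165, edgeR adjusted p = 0.0393), so that EPS lines were 1.51-fold higher. The call was lost without any single line, with log2 fold changes between -0.72 and -0.46 and adjusted p between 0.0512 and 0.103. With library totals alone as the scale, which moved the median of all genes to 0.14, it was -0.45 (adjusted p = 0.0984). H2afv, the second H2A.Z gene, was at 52.8, 83.3 and 83.4 CPM in TPS lines and at 135, 101 and 71.7 CPM in EPS lines, with overlapping groups and a log2 fold change of -0.49 (adjusted p = 0.226). H2afz made up 91.4% ± 0.756 of the H2A.Z level per kilobase in TPS lines and 91.9% ± 2.36 in EPS lines (SD, n = 3).

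H2afx and H2afy also lay lower in all TPS lines than in all EPS lines but did not pass the threshold. H2afx codes for H2A.X, which is phosphorylated at DNA breaks, and was at 112, 113 and 72.3 CPM in TPS lines and at 259, 136 and 161 CPM in EPS lines. Its log2 fold change was -0.90 (SE 0.276, edgeR adjusted p = 0.0535). H2afy codes for macroH2A1, a variant of silent chromatin such as the inactive X chromosome, and was at 139, 125 and 134 CPM in TPS lines and at 225, 246 and 148 CPM in EPS lines. Its log2 fold change was -0.63 (SE 0.195, edgeR adjusted p = 0.0543). TPS lines were close to each other in H2afy, and EPS line 3 was near them. DESeq2, as an alternative, called both, with adjusted p of 0.0168 for H2afx and 0.038 for H2afy. H2afy2, the macroH2A2 gene, was at 24.1, 22.4 and 20.7 CPM in TPS lines and at 26.1, 13 and 14.8 CPM in EPS lines, a log2 fold change of 0.32 (adjusted p = 0.438). H2afj was at 8.83 to 13.1 CPM in TPS lines and 8.73 to 13.5 CPM in EPS lines.

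The genes of H3.3, the H3 variant placed outside replication at active genes and repeats, did not pass the threshold. H3f3b was at 621, 631 and 787 CPM in TPS lines and at 790, 669 and 547 CPM in EPS lines, and its log2 fold change was 0.02 (SE 0.175, edgeR adjusted p = 0.936). H3f3a was at 448, 481 and 494 CPM in TPS lines and at 634, 474 and 602 CPM in EPS lines, with a log2 fold change of -0.26 (SE 0.146, adjusted p = 0.229). Both genes code for the same protein. H3f3b made up 62.0%, 60.7% and 65.2% of the H3.3 level per kilobase in TPS lines and 59.5%, 62.4% and 51.7% in EPS lines, and these ranges overlap.

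H1f0 codes for H1.0, the linker histone of cells that divide slowly or differentiate, and is known to be induced by histone deacetylase inhibitors in many cell types. It was at 54.2, 62.1 and 53.0 CPM in TPS lines and at 52.7, 42.4 and 37.9 CPM in EPS lines. The groups did not overlap, but TPS line 3 and EPS line 1 were nearly equal. The log2 fold change was 0.35 (SE 0.164, edgeR adjusted p = 0.163), which did not pass the threshold. H1fx, which codes for H1.10, was at 22.7, 31.2 and 33.1 CPM in TPS lines and at 26.0, 23.5 and 11.8 CPM in EPS lines (log2 fold change 0.51, adjusted p = 0.271). Per kilobase, H1f0 was at 27.5 ± 2.41 RPKM in TPS lines and 21.6 ± 3.71 RPKM in EPS lines, and Hist1h1c at 24.0 ± 12.8 and 7.10 ± 1.27 RPKM (SD, n = 3). In EPS lines H1f0 therefore lay above Hist1h1c in every line by share of the H1 level, with 37.7% to 49.5% against 12.6% to 16.8%. In TPS lines the shares overlapped, with 28.2% to 38.1% for H1f0 and 17.1% to 41.0% for Hist1h1c.

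In order of mean RPKM in TPS lines, the tested variants ran from H2afz through H3f3b (228 ± 31.3), H3f3a (135 ± 6.86), H2afx (71.7 ± 16.8), H2afv (44.8 ± 10.8), H1f0 (27.5 ± 2.41), H1fx (23.8 ± 4.58), H2afy (19.5 ± 1.05) and H2afy2 (10.3 ± 0.775) to H2afj (5.77 ± 1.22). Neighbours from H1f0 to H2afy lay within about their SDs. In EPS lines the order differed in that H2afy (30.3 ± 7.57) stood above H1f0 (21.6 ± 3.71) and H1fx (16.8 ± 6.22). By group mean, the most abundant cluster gene per kilobase was Hist1h2bc, with 31.9 ± 13 RPKM in TPS lines and 12.1 ± 2.27 in EPS lines (SD, n = 3 in each case). This lead lay within the SDs. Hist1h1c was at 24.0 ± 12.8 RPKM in TPS lines. In EPS lines Hist1h3h was at 10.4 ± 5.49, Hist1h3c at 10.4 ± 4.84 and Hist1h4n at 9.92 ± 8.44 RPKM. Replication-dependent genes made up 10.1%, 6.76% and 6.99% of all histone counts in TPS lines and 4.64%, 2.93% and 2.88% in EPS lines, as these libraries count them. The groups did not overlap in this share, and the smallest p-value that an exact permutation test of 3 against 3 lines can give is 0.1. Of the variants, H1fnt, H1foo and the H2afb genes are known from germ cells, and none of them had more than 2 counts in all libraries together.

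Of the 15 listed genes that make and process replication-dependent histone mRNA, edgeR called 0 higher and 2 lower, where 14.4% and 7.34% of all genes tested were called. So few calls are no result about the list. Their median log2 fold change was -0.08. Slbp, which codes for the protein that binds the stem-loop, was at 98.9, 95.4 and 95.9 CPM in TPS lines and 110, 92.0 and 97.6 CPM in EPS lines (log2 fold change -0.05, adjusted p = 0.812). Npat, the activator of histone transcription in S phase, was at -0.02 on the log2 scale (adjusted p = 0.941). The called genes were Zfp473 (-0.88, SE 0.223, edgeR adjusted p = 0.0292), whose protein is part of the U7 processing complex, and Mif4gd (-0.71, SE 0.18, adjusted p = 0.029), whose protein links the stem-loop binding protein to translation. Both lay lower in every TPS line than in every EPS line, and Zfp473 was at 12.2, 18.0 and 13.1 CPM against 21.7, 27.5 and 30.7 CPM. Cpsf2, Cpsf3, Sympk and Cstf2, whose proteins belong to the complex that cleaves the mRNA end, had log2 fold changes from -0.41 to 0.03. Those of Lsm10, Lsm11, Casp8ap2, Coil, Srrt, Eri1 and Upf1 ran from -0.26 to 0.27, and none of these genes was called. Neither call held with library totals as the scale. That of Zfp473 was also lost without TPS line 1, TPS line 3, EPS line 2 or EPS line 3 (adjusted p 0.073 to 0.0945), and that of Mif4gd without TPS line 1, TPS line 2, EPS line 2 or EPS line 3 (adjusted p 0.0609 to 0.0877).

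Of 29 histone chaperone and exchange genes, 0 were called higher and 1 lower, both below the 14.4% and 7.34% of all genes tested, and the median log2 fold change was -0.25. The called gene was Chaf1b, a subunit of the chromatin assembly factor that deposits new H3 and H4 at replication, at 100, 112 and 111 CPM in TPS lines and 173, 149 and 145 CPM in EPS lines (-0.53, SE 0.128, edgeR adjusted p = 0.0248). The call was lost without EPS line 1 (adjusted p = 0.0504) and without any single TPS line (0.0554 to 0.0854). Hira, which places H3.3 at active genes, was at -0.11 (adjusted p = 0.691), and Daxx and Atrx, which place it at repeats, were at -0.28 (adjusted p = 0.204) and -0.69 (adjusted p = 0.142). Atrx was at 194, 164 and 225 CPM in TPS lines and 175, 340 and 428 CPM in EPS lines, so that EPS line 1 lay within the TPS range. Without EPS line 1 its log2 fold change was -1.01 (edgeR adjusted p = 0.0219). Cenpa, the H3 variant gene of centromeres, which the name rule leaves out, was at 115, 152 and 127 CPM in TPS lines and 166, 190 and 184 CPM in EPS lines (-0.45, SE 0.144, adjusted p = 0.0597). H2bfm, also outside the rule and named after its values were seen, was at 1.4, 0.207 and 0.571 CPM in TPS lines and had 0 counts in every EPS library, which allows up to 3 counts in each.

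Of 28 S phase genes, 5 had a positive and 23 a negative log2 fold change, with a median of -0.25, and over all genes tested 8694 were positive and 8774 negative. By edgeR 1 was called higher and 3 lower, where 14.4% and 7.34% of all genes tested were called, so that the calls are no result about the list. Their sum was 5040, 5520 and 5150 CPM in TPS lines and 6800, 6030 and 6270 CPM in EPS lines. EPS line 1, with the highest level of cluster genes among the EPS lines, also had the highest S phase sum. The genes called lower were Cdk2, a kinase of S phase entry (-0.95, adjusted p = 0.00275), Pola1, a DNA polymerase subunit (-0.86, adjusted p = 0.009), and Uhrf1, which keeps DNA methylation at replication (-0.51, adjusted p = 0.027). The single gene called higher was Ccne1, the cyclin E1 gene that Cdk2 pairs with, at 178, 170 and 217 CPM in TPS lines and 138, 117 and 143 CPM in EPS lines (0.51, SE 0.148, adjusted p = 0.047). The call of Ccne1 was lost when any line was left out, with adjusted p between 0.0662 and 0.157, and also with DESeq2 (0.49, adjusted p = 0.0679), without the low-count filter (adjusted p = 0.065) and with technical replicate 2 alone (adjusted p = 0.0708). It was kept in 4 of 14 alternative fits, whereas those of Cdk2 and Pola1 were kept in all 14 alternative fits. That of Uhrf1 was lost without TPS line 1, TPS line 3, EPS line 2 or EPS line 3 (adjusted p 0.0511 to 0.0913) and with library totals as the scale (-0.36, adjusted p = 0.0853). Whether the share of cells in S phase differed between the lines was not measured.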

How the data were processed

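Polyadenylated RNA of 3 TPS and 3 EPS lines, with 2 technical replicates each, was sequenced as paired-end reads. The submitters' processing notes name fastp 0.19.7, STAR 2.7.3a and genome build mm10. The authors deposited raw read counts per gene, and the counting tool, annotation, strand and handling of reads with several places are not given in the sources used here. Of 55401 identifiers, 55141 matched GENCODE M21 (GRCm38) once versions were removed. Counts of technical replicates were summed per line. Nothing says that the lines of a group were derived independently, so p-values measure the spread between these lines.

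TPS and EPS lines were compared with edgeR 4.0.16 in R 4.3.3 (quasi-likelihood test, TMM, filterByExpr with 10 counts in enough lines and 15 in all), with Benjamini-Hochberg adjustment over all genes tested and a threshold of 0.05. CPM are counts over the line's total times its TMM factor, and RPKM are CPM per 1000 bases of merged exons. The alternatives were DESeq2 1.42.0, other scalings and filters, the libraries of technical replicate 1 or 2 only, a block for line number, a threshold of 0.01 and leaving out each line. Named genes were all tested variants, all called cluster genes, the 10 cluster genes with the highest mean CPM, up to 5 called genes of each related list, all mRNA processing genes, and Cenpa, Hira, Daxx and Atrx. Members and lists were chosen with earlier results of these data known. Counting errors assume independent molecules, which reads without molecular identifiers are not.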

Additional observations from a re-analysis of the deposited data

How the results depend on the processing

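With DESeq2-type factors the counts of called histone genes were those of TMM. The count of replication-dependent genes called higher (4) stayed within a range of 3 to 6 under the scaling, filter, single technical replicate and DESeq2 alternatives, was 2 with the line number as a replicate block, 0 at a threshold of 0.01, and 1 to 6 when each line was left out. Variants called lower (1) were 0 with library totals only, 3 without a low-count filter and with DESeq2, 2 with technical replicate 2 alone, 0 with the replicate block, 0 at 0.01, and 0 to 1 when each line was left out. The same values hold for all members called higher and lower. Under DESeq2 and without the filter, 13 variants were tested in place of 10. The labels do not say whether line numbers pair TPS with EPS lines. The correlations of deviations between lines of the same number were 0.0239, -0.139 and 0.0185. Between lines of different numbers they ran from -0.225 to 0.23. With 3 lines in a group, such values cannot decide whether the lines were paired. The block moved the calls from 4 to 2 and from 1 to 0.

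Processing genes called lower (2) were 0 with library totals only, 1 with the replicate block and 0 to 2 without single lines. Chaperone genes called lower (1) were 0 with library totals only (then 1 higher), 2 without the filter, 0 with the block and 0 to 2 without single lines. S phase genes called higher (1) were 2 with library totals only, with 1 CPM in 3 lines and with technical replicate 1 alone, 0 without the filter, with technical replicate 2 alone and with the block, and 0 without any single line. S phase genes called lower (3) were 2 to 4 under the alternatives. With the replicate block the edgeR adjusted p was 0.0531 for Hist1h4i, 0.0706 for Hist3h2a, 0.065 for H2afz, 0.0608 for Mif4gd, 0.0685 for Chaf1b, 0.0609 for Ccne1 and 0.0646 for Uhrf1. The cause of these changes was not tested.

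No called gene changed sign. Among genes that were not called, values near 0 did. With library totals only, Slbp was at 0.10, Lsm10 at 0.05, Casp8ap2 at 0.07, Npat at 0.13, Coil at 0.14 and Hira at 0.03. H3f3b was at -0.002 without the filter and -0.02 with technical replicate 2 alone. Cstf2 and Eri1 were at -0.0017 and -0.0022 without the filter. Npat was at 0.01 and Coil at 0.02 with 1 CPM in 3 lines, Npat at 0.04 with technical replicate 1 alone and Coil at 0.0049 with technical replicate 2 alone. When each line was left out, the ranges that crossed 0 were -0.11 to 0.14 for H3f3b, -0.22 to 1.1 for Hist1h4n, -0.12 to 0.0029 for Slbp, -0.1 to 0.04 for Npat, -0.07 to 0.1 for Cstf2, -0.01 to 0.04 for Eri1, -0.05 to 0.03 for Coil and -0.01 to 0.52 for Srrt. Depth limits the low cluster genes, such as Hist3h2a with 99 counts in all.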
